A study of Mus musculus with 12 samples.

Results

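The genes described here form the NRF2 axis together with the superoxide dismutases, catalase and DJ-1 in splenic B cells. The 10 members were taken by symbol from the 24982 genes of the deposited table: Nfe2l2, Keap1, Bach1, Mafg, Sqstm1, Nqo1, Sod1, Sod2, Cat and Park7. All 10 passed the filter on low values in every comparison. NRF2, the product of Nfe2l2, is a transcription factor that pairs with small MAF proteins such as MAFG and binds antioxidant response elements in the promoters of detoxifying and antioxidant genes. KEAP1 holds NRF2 in the cytoplasm for ubiquitination until oxidants or electrophiles modify its cysteines. BACH1 occupies the same elements as a repressor, and p62, the product of Sqstm1, can pull KEAP1 away from NRF2. The enzymes at the end of the axis act in series: superoxide dismutases turn superoxide into hydrogen peroxide, and catalase breaks hydrogen peroxide down.

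Polyadenylated RNA of B lymphocytes from spleens of mice aged 6 weeks was sequenced in 12 libraries, 4 per group. WT mice carried the wild-type genotype (C57BL/J6), Eμ-Myc mice carried a Myc transgene driven by the immunoglobulin heavy-chain enhancer, which is active in the B lineage, and Eμ-Myc; PRPS2 KO mice (the knockout group below) carried the same transgene and lacked PRPS2, an enzyme that makes phosphoribosyl pyrophosphate for nucleotide synthesis. Eμ-Myc was set against WT to find what the transgene deregulates. The knockout was added to ask whether redox changes that the submitters report for PRPS2 loss, not measured here, touch the same genes. The labels do not say whether a library came from 1 mouse or several, or which PRPS2 allele was used, so p-values measure the spread between these libraries. Values are coverage per gene, read here as a mean along the transcript and so a measure per length, scaled so that libraries are comparable. As a check of the labels, scaled Prps2 coverage averaged 126 ± 18.1 for WT, 247 ± 41.3 for Eμ-Myc and 17 ± 0.736 for knockout libraries (SD, n = 4).

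Marker genes were summed per library to show what the isolates held. All 7 B-cell markers were above 1 in every library, with sums from 5940 to 11600. T-cell markers summed to 352 to 1870 in WT, to 77.8 to 107 in Eμ-Myc, and to 420, 436, 11.1 and 10.6 in knockout libraries 1 to 4. The NK-cell sum ran from 150 to 670 in WT and from 42.6 to 96.6 in Eμ-Myc, and was 266, 212, 11.5 and 9.58 in the knockout libraries. The 8 myeloid markers were above 1 in every library, with sums from 8150 to 25200 in WT, from 5920 to 16600 in Eμ-Myc, and of 14800, 10900, 3110 and 1350 in the knockout libraries. Knockout libraries 1 and 2 thus stood apart from 3 and 4, and Myc itself was 1060 and 1630 in the former against 3110 and 3370 in the latter. Early B-cell markers summed to between 8.05 and 19.9 in WT, 39.3 and 75.8 in Eμ-Myc, and 29.8 and 40.4 in knockout libraries, and erythroid markers to between 77.6 and 836 over all libraries. In such bulk samples fewer cells of a type and less RNA per cell cannot be told apart.

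Within the WT isolates, which also held T-cell, NK-cell and myeloid markers, the members spanned a wide range of levels per length. Sqstm1 (490 ± 31) and Sod1 (453 ± 32) were highest and their libraries overlapped. Park7 (259 ± 20) came next and stood apart from Keap1 (153 ± 12.7), whose libraries overlapped those of Cat (125 ± 14.2). Nfe2l2 followed at 66.2 ± 21.5 without overlap. Bach1 (27.9 ± 10.9), Sod2 (26.1 ± 1.5) and Mafg (19.7 ± 9.36) did not separate from one another, and Nqo1 was lowest at 1.67 ± 1.18 (scaled coverage, SD, n = 4). In Eμ-Myc the order changed at the top and near the bottom. Sod1 (715 ± 124) and Park7 (603 ± 89.8) overlapped and both lay above Sqstm1 (310 ± 18.3), while Bach1 (12.9 ± 2.95) lay below Mafg (18.2 ± 1.07).

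**Figure D1:**
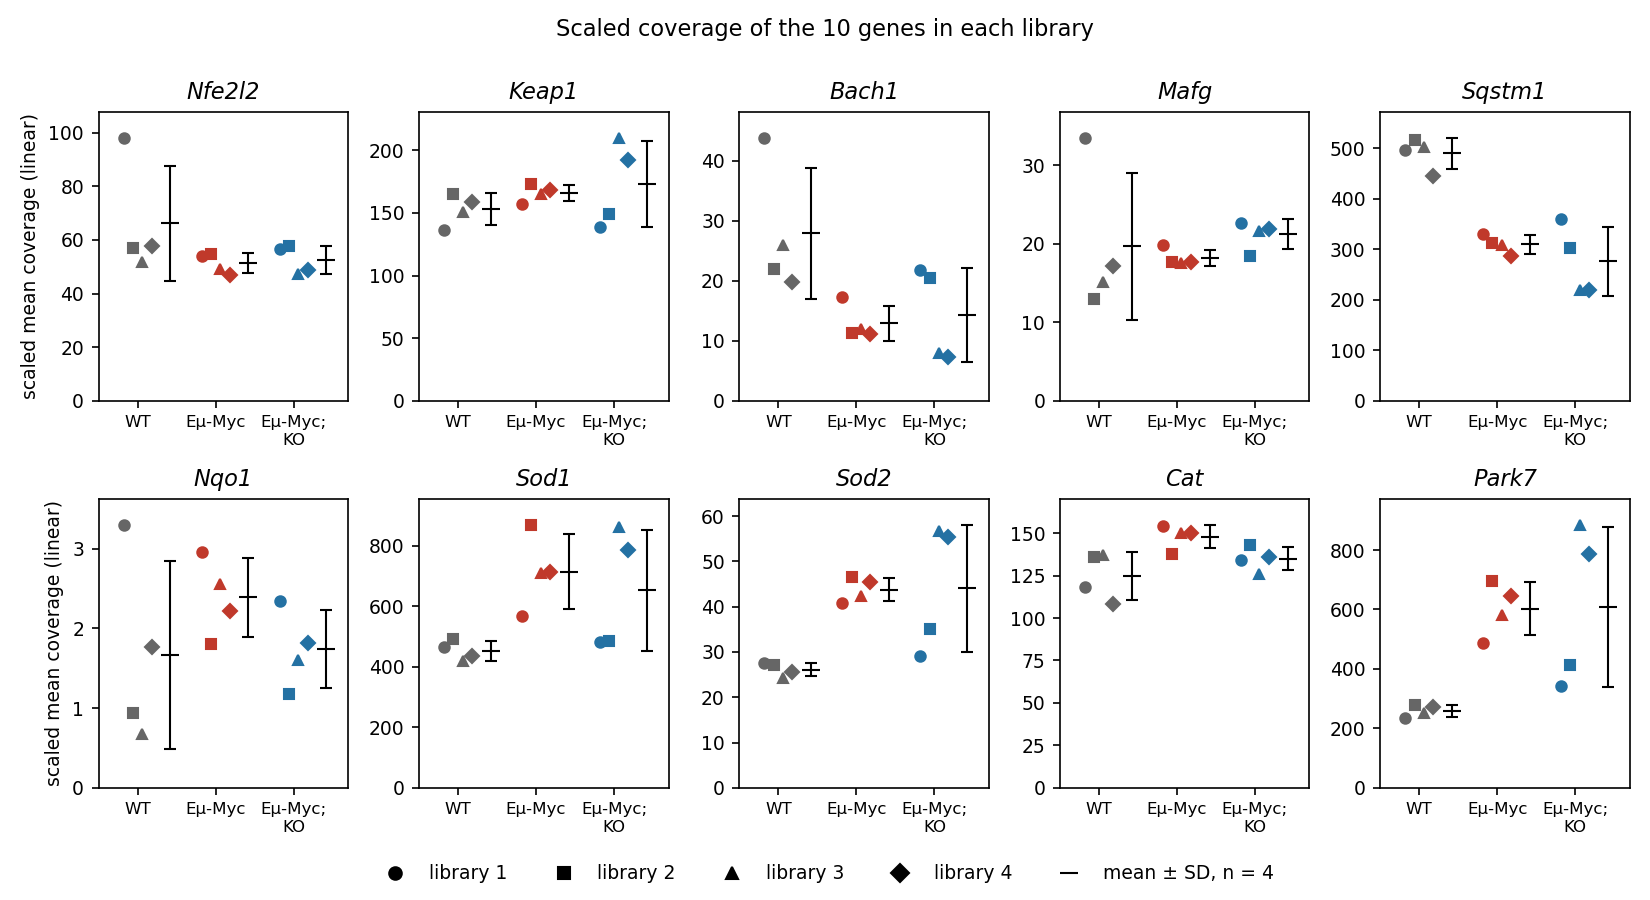
Scaled mean coverage (linear axis from 0) of each of the 10 genes in the 12 libraries, grouped as WT, Eμ-Myc and Eμ-Myc; PRPS2 KO. Symbols mark library numbers 1 to 4, and bars give the mean ± SD of 4 libraries. Park7 ran from 235 to 278 in WT and from 488 to 696 in Eμ-Myc, and knockout libraries 1 and 2 lay apart from 3 and 4.

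From WT to Eμ-Myc both superoxide dismutases and Park7 rose and Bach1 and Sqstm1 fell, while Nfe2l2, Keap1, Mafg, Nqo1 and Cat were not called. Park7 was 2.31-fold, Sod2 1.66-fold and Sod1 1.56-fold higher in Eμ-Myc, whereas Sqstm1 fell to 0.632 and Bach1 to 0.488 of the WT level. In limma, 5 of the 10 members were called at an adjusted p under 0.05, 3 higher and 2 lower. Among all 12692 genes tested 55.1% were called, 29.9% higher and 25.2% lower, so the share of members called was close to the background. The median log2 fold change was 0.19 over the members and -0.02 over all genes. For 6 members the groups did not overlap, which held for 51.5% of all genes (27.8% upward and 23.7% downward), and 6 had an unadjusted p under 0.05, as did 60.9% of all genes. Scaling by total coverage shifted the median of all genes from -0.02 to -0.19 on the log2 scale and took the genes called higher from 54.3% to 42% of all calls. All 5 calls were kept with that scaling, and Nfe2l2 passed too.

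Promoter windows of the members were searched for the sequence of the antioxidant response element core, TGACNNNGC or GCNNNGTCA on the other strand, and for the palindromic E-box CACGTG that MYC and MAX bind. The windows come from RefSeq (GRCm38.p6), reach from 250 bases before to 50 after the annotated start, and matched all 10 members. The antioxidant core was found in 3 members, Nfe2l2, Mafg and Sod1, against 12.4% of all 32851 windows. The E-box was found in 1 member, Mafg, against 7.15% of all windows. Of these 3 genes Sod1 was called in Eμ-Myc against WT and Nfe2l2 and Mafg were not. Park7, Sod2, Sqstm1 and Bach1, which were called, held neither run of letters in this window. The 3 windows with a match are printed 5′ to 3′ on the strand of the gene, with the matched letters in capitals, to show where each lies (chr2:75704614-75704913, chr11:120633498-120633797 and chr16:90220512-90220811 in that order). In Nfe2l2 the match begins 240 bases before the start, in Mafg the antioxidant match begins 222 and the E-box 41 bases before it, and in Sod1 the match begins 56 bases before it.
Nfe2l2: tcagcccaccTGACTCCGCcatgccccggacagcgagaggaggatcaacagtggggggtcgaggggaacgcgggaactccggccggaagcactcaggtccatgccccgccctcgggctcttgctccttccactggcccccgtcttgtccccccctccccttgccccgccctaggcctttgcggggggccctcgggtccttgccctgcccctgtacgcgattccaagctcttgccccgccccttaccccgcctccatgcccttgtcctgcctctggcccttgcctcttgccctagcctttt
Mafg: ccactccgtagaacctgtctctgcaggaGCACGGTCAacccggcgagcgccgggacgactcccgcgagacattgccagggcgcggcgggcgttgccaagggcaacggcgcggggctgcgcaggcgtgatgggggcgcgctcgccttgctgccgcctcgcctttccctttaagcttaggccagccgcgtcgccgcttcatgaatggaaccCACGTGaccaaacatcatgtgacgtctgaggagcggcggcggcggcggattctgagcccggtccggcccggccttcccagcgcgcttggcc
Sod1: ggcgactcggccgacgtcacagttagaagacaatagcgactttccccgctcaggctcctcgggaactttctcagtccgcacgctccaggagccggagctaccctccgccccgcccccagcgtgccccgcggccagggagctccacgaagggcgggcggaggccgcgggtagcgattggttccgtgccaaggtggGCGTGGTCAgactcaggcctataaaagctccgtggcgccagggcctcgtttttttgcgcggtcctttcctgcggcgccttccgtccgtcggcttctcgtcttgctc

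Nfe2l2 (chr2:75675513-75704641, minus strand, GRCm38) showed 98.1, 57, 51.7 and 57.8 units of scaled coverage in WT libraries 1 to 4 and 54, 54.7, 49.3 and 47.1 in Eμ-Myc. WT library 1 was far above the rest, and the lowest WT value (51.7) fell within the range of Eμ-Myc. The log2 difference was -0.32 (SE 0.19, limma adjusted p 0.175), with a 95% interval from -0.74 to 0.10. With total coverage scaling it was -0.49 at an adjusted p of 0.0388, and over the alternatives the adjusted p ran from 0.0388 to 0.396. Keap1, the brake on NRF2 (chr9:21229730-21239361, minus strand), measured 136, 165, 151 and 159 in WT and 157, 173, 165 and 168 in Eμ-Myc. The groups overlapped, and the log2 difference, 0.12 (SE 0.09, adjusted p 0.284 in limma), turned to -0.05 with total coverage scaling. An antisense gene, Gm16754, shares 510 exonic bases with Keap1 in the annotation. Since the strand setting of the counting is not given in the sources used here, reads of the 2 cannot be told apart.

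Bach1, the repressor at antioxidant response elements (chr16:87698945-87733346, plus strand), measured 43.8, 22, 25.9 and 19.8 in WT and 17.3, 11.3, 11.9 and 11.2 in Eμ-Myc. Every Eμ-Myc library lay below every WT library. It fell by 1.04 on the log2 scale (SE 0.25, adjusted p 0.0066 in limma), and leaving out single libraries gave values from -1.18 to -0.80. Mafg, a small MAF partner of both NRF2 and BACH1 (chr11:120625117-120633600, minus strand), measured 33.5, 13, 15.1 and 17.2 in WT and 19.8, 17.7, 17.6 and 17.7 in Eμ-Myc. Apart from WT library 1 its WT values lay below all Eμ-Myc values, and the log2 difference, -0.01 (SE 0.26, adjusted p 0.972 in limma), became 0.27 without that library. Mafg shares 124 exonic bases with Sirt7 on the same strand. WT library 1 held the highest WT value of Nfe2l2, Bach1, Mafg and Nqo1, and also the highest myeloid sum (25200, against 8150 to 14300 in the other WT libraries). The part of the myeloid genes in these values was not tested.

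Sqstm1, the autophagy receptor p62 and itself a target of NRF2 (chr11:50199366-50210827, minus strand), measured 497, 516, 502 and 445 in WT and 331, 313, 309 and 286 in Eμ-Myc. The groups were well separated, and the fall on the log2 scale was -0.66 (SE 0.09, adjusted p 2.99e-04 in limma). Mrnip lies on the opposite strand and shares 580 exonic bases with Sqstm1. It moved the other way, by 1.21 (SE 0.19, limma adjusted p 5.75e-04). Nqo1, a quinone reductase and a classic NRF2 target (chr8:107388225-107403206, minus strand), was close to the floor of the table at 3.3, 0.934, 0.671 and 1.77 in WT and 2.96, 1.8, 2.56 and 2.22 in Eμ-Myc. WT library 1 exceeded all Eμ-Myc libraries, and the log2 difference, 0.55 (SE 0.36), had an adjusted p of 0.215 in limma. It became 0.87 with an adjusted p of 0.0310 without WT library 1, and 0.30 with a pseudocount of 2 (adjusted p 0.248). The adjusted p of Nqo1 over the alternatives ran from 0.00401 to 0.479.

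Superoxide dismutase 1, the copper and zinc enzyme of the cytosol (Sod1, chr16:90220754-90226329, plus strand), measured 466, 492, 419 and 436 in WT and 567, 870, 709 and 713 in Eμ-Myc. Its lowest Eμ-Myc value still exceeded the highest WT value, and it rose by 0.64 on the log2 scale (SE 0.13, limma adjusted p 0.00285). Sod2, the manganese enzyme of the mitochondrial matrix (chr17:13006846-13040063, plus strand), measured 27.5, 27.2, 24.3 and 25.6 in WT and 40.9, 46.5, 42.4 and 45.4 in Eμ-Myc. No Eμ-Myc library came near the WT range, and the rise was 0.73 (SE 0.10, limma adjusted p 2.38e-04). The ratio of Sod2 to Sod1 within a library, which does not depend on scaling, averaged 0.0577 ± 0.0017 for WT, 0.0623 ± 0.00783 for Eμ-Myc and 0.0673 ± 0.00524 for knockout libraries (SD, n = 4). WT ran from 0.0553 to 0.059 and Eμ-Myc from 0.0535 to 0.0722, so those groups overlapped, while every knockout library (0.0607 to 0.0725) lay above WT. Catalase, the heme enzyme of peroxisomes (Cat, chr2:103453849-103485160, minus strand), measured 118, 136, 137 and 108 in WT and 154, 138, 150 and 150 in Eμ-Myc. The groups did not overlap, yet the difference of 0.25 (SE 0.10) did not pass in limma (adjusted p 0.0638) and was 0.08 with total coverage scaling (adjusted p 0.596). Among the alternatives only library quality weights brought it under the threshold, at 0.0392.

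Park7 (chr4:150897133-150914437, minus strand) encodes DJ-1, a redox-sensitive protein that protects cells from oxidative stress. It measured 235, 278, 250 and 273 in WT and 488, 696, 582 and 645 in Eμ-Myc, and each Eμ-Myc library was far above the WT range. Its difference of 1.21 on the log2 scale (SE 0.13, adjusted p 5.25e-05 in limma) was the largest of the 10, and 91.2% of all genes tested had a lower one. The 3 increases and 2 decreases called here passed in each of the 8 fits that left out 1 library. Within a library, Bach1 stood at 0.419 ± 0.069 of the Nfe2l2 level in WT and 0.251 ± 0.0489 in Eμ-Myc, with no overlap (0.343 to 0.501 against 0.206 to 0.321). Keap1 relative to Nfe2l2 was 2.49 ± 0.739 in WT and 3.25 ± 0.274 in Eμ-Myc, where WT library 1 was low at 1.38 and the top of WT (2.91) met the bottom of Eμ-Myc (2.91).

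**Figure D2:**
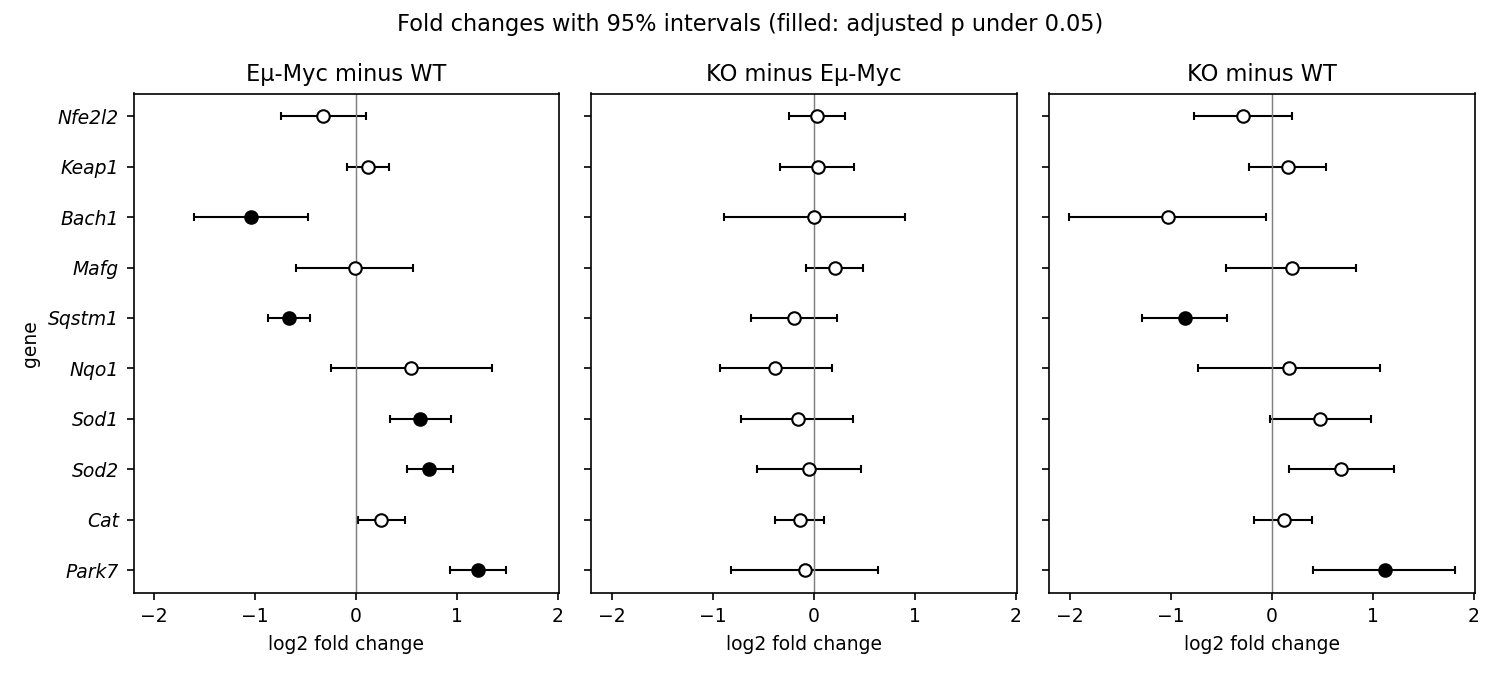
Log2 fold changes of the 10 genes in the 3 comparisons, with 95% intervals from limma (4 libraries against 4), where filled points have an adjusted p under 0.05 over all genes tested. Against WT, Park7 lay at 1.21 for Eμ-Myc and 1.12 for the knockout group, and between the knockout group and Eμ-Myc every interval crossed 0.

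No member was called in the knockout group against Eμ-Myc, the comparison that asks about PRPS2 loss. In limma 0 of 10 had an adjusted p under 0.05 and 0 of 10 an unadjusted p under 0.05, where 0.00798% (Prps2 alone) and 0.998% of the 12531 genes tested did. The groups overlapped for all 10 members, whereas they did not for 1.45% of all genes (0.686% upward and 0.766% downward). The median log2 fold change was -0.07 over the members and -0.04 over all genes. With the replicate number as a block the count was also 0. Of the 5 members called in Eμ-Myc against WT, Sod1 alone had an interval here that reached a difference of the same size, downward. On the log2 scale the 95% interval ran from -0.82 to 0.64 for Park7, from -0.89 to 0.90 for Bach1, from -0.72 to 0.39 for Sod1, from -0.56 to 0.47 for Sod2, from -0.62 to 0.23 for Sqstm1 and from -0.93 to 0.18 for Nqo1. It was narrower for Cat (-0.38 to 0.10), Nfe2l2 (-0.24 to 0.31), Keap1 (-0.33 to 0.40) and Mafg (-0.08 to 0.49). Mafg had the smallest unadjusted p of the 10 in limma, 0.130.

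Within the knockout group most members fell into 2 pairs of libraries. Park7 measured 344, 414, 885 and 787 in knockout libraries 1 to 4, so that libraries 1 and 2 lay between the WT and Eμ-Myc ranges and 3 and 4 above the Eμ-Myc range. Sod2 measured 29.2, 35.1, 56.8 and 55.3, with the same arrangement. Sod1 measured 481, 485, 864 and 786, and libraries 1 and 2 fell within its WT range. Keap1 measured 139, 149, 210 and 192, with libraries 3 and 4 above every other library of the series. In the opposite sense, Sqstm1 measured 360, 303, 220 and 219, and Bach1 21.7, 20.5, 7.89 and 7.3. For Bach1 the first 2 values lay within the WT range and the last 2 below the Eμ-Myc range. Nfe2l2 followed that order over a smaller span, at 56.7, 57.7, 47.4 and 48.7.

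Mafg (22.7, 18.4, 21.6 and 21.9), Nqo1 (2.35, 1.18, 1.6 and 1.82) and Cat (134, 143, 126 and 136) did not separate knockout libraries 1 and 2 from 3 and 4. Thus 4 members were higher in libraries 3 and 4 than in both others, 3 were lower and 3 were mixed. The separation was general: 88.1% of all genes tested divided the knockout libraries in this way, 50.9% upward and 37.2% downward in 3 and 4, and the 7 of 10 members lie below that share. The 2 pairs are not groups of the study, and the T-cell, NK-cell, myeloid and Myc values that differ between them stand above. Plasma-cell sums differed too, at 296 and 362 in libraries 1 and 2 and 158 and 186 in 3 and 4. The markers in that sum were divided. Jchain was 177 and 222 against 2.06 and 2.51, and Prdm1 3.43 and 3.64 against 0.343 and 0.342. Sdc1 (6.56 and 7.38 against 12.7 and 10.4) and Irf4 (109 and 129 against 143 and 173) went the other way. Early B-cell sums were 40.1 and 40.4 against 31.9 and 29.8, and erythroid sums 90.8 and 78.2 against 117 and 124. Of the early B-cell markers only Rag1 was lower in both libraries 3 and 4 (21.3 and 26.2 against 8.69 and 10.5). Igll1 was higher there (4.11 and 2.56 against 4.91 and 4.68), and Rag2, Vpreb1 and Dntt did not separate the pairs. The part of all these in the members' values was not tested. The SD on the log2 scale was 0.67 for Park7 in the knockout group against 0.22 in Eμ-Myc and 0.11 in WT, and 0.82 for Bach1 against 0.29 and 0.50. For Cat it was 0.07 in both transgenic groups and 0.17 in WT.

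**Figure D3:**
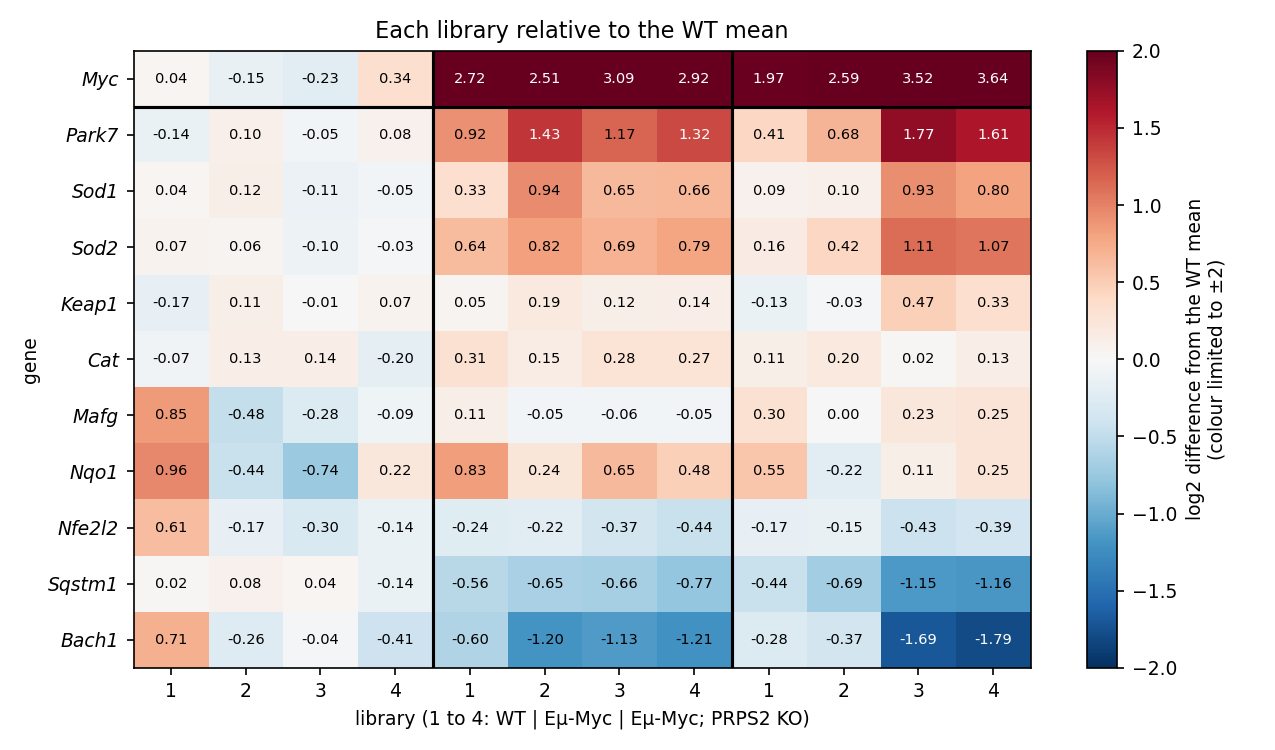
Log2 difference of each library from the WT mean for Myc (top row) and the 10 genes, with libraries 1 to 4 of WT, Eμ-Myc and Eμ-Myc; PRPS2 KO from left to right and colour limited to ±2. In the knockout libraries Park7 read 0.41, 0.68, 1.77 and 1.61 and Bach1 -0.28, -0.37, -1.69 and -1.79, while Cat stayed between 0.02 and 0.20.

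Because libraries 1 and 2 stood apart, the comparison with Eμ-Myc was repeated without each of the 2 pairs, as an alternative added after the data were seen and with the remaining 2 libraries standing for the group. Without libraries 1 and 2, 29.7% of all genes and 3 members passed in limma, a share of members near that of all genes: Bach1 at -0.71 (adjusted p 0.0383), Sqstm1 at -0.49 (adjusted p 0.0156) and Sod2 at 0.35 (adjusted p 0.0470). Without libraries 3 and 4, 10.6% of all genes passed and 1 member, Park7, at -0.66 (adjusted p 0.0466). Since the pairs were chosen from their values, the spread within the remaining pair is reduced. The p-values of these repeats therefore do not test PRPS2 loss. In 7 of 10 members the sign was opposite in the 2 repeats, the same 7 that divided the knockout libraries. These signs largely restate that division and are no separate result. The values without 1 and 2 and without 3 and 4 were 0.48 and -0.66 for Park7, 0.22 and -0.55 for Sod1, 0.35 and -0.44 for Sod2, and 0.28 and -0.21 for Keap1. In the other sense they were -0.71 and 0.71 for Bach1, -0.49 and 0.10 for Sqstm1, and -0.09 and 0.16 for Nfe2l2. Library quality weights from limma, which gave weights of 0.0825 and 0.125 to knockout libraries 1 and 2 and of 3.41 and 7.56 to 3 and 4, called 8 members and 7650 (61%) of all genes. In the fits that left out a single library no member was called.

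Between the knockout group and WT, Sqstm1 was called lower and Park7 higher. Sqstm1 fell to 0.551 of WT (log2 fold change -0.86, SE 0.18, limma adjusted p 0.0231) and Park7 rose 2.17-fold (1.12, SE 0.31, limma adjusted p 0.0369). In both genes all 4 knockout libraries lay on one side of all 4 WT libraries. Over all 12654 genes tested 27.8% were called, 15.6% higher and 12.2% lower, so 2 of 10 members is close to the background. Groups did not overlap for 3 members, 2 upward and 1 downward, and for 37% of all genes, 19% upward and 18% downward. An unadjusted p under 0.05 was found for 4 members and for 49.4% of all genes. Sod2 was 1.61-fold higher (0.69, SE 0.23) without overlap but missed the threshold narrowly at an adjusted p of 0.0532. It passed with median-of-ratios scaling (0.0433), total coverage scaling (0.0336), a filter of 10 (0.0426) and all 12 libraries in one fit (0.0167), and its adjusted p over the alternatives ran from 2.80e-06 to 0.215. Bach1 (-1.03, SE 0.43, adjusted p 0.0890) and Sod1 (0.48, SE 0.22, adjusted p 0.111) did not pass. Cat (0.12), Keap1 (0.16), Mafg (0.20), Nqo1 (0.17) and Nfe2l2 (-0.28) were not called either.

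Both of those calls depended on which libraries entered the fit. Dropping WT library 1, 2 or 3, or knockout library 3 or 4, left 0 members called, with 4.83%, 0.144%, 0.12%, 4.02% and 3.03% of all genes called in that order. Dropping WT library 4 left 1 member (7.56% of all genes), knockout library 1 gave 5 (52.8%) and knockout library 2 gave 3 (31.7%). The count of members moved with that of all genes. For Park7 the adjusted p rose to between 0.0735 and 0.0903 when any one WT library was dropped, and to 0.0880 and 0.101 when knockout library 3 or 4 was. For Sqstm1 it was 0.0615, 0.0762 and 0.0709 on dropping WT library 1, 2 or 3, and 0.0639 and 0.0698 on dropping knockout library 3 or 4. The comparison has its WT libraries in common with that of Eμ-Myc, and only the direct comparison tests a difference between both transgenic groups.

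The other genes of the pathway were taken from 4 lists. Of 12 further NRF2 regulators 11 could be tested. For Eμ-Myc, limma called 5 of them, 2 up and 3 down from WT, with a median log2 fold change of -0.16. Btrc, an adaptor of the ubiquitin ligase that degrades NRF2 without KEAP1, rose by 1.17 (SE 0.14, limma adjusted p 1.01e-04). Rbx1, the RING subunit of cullin ligases, rose by 0.41 (adjusted p 0.0268), and Nfe2l1, a relative of NRF2 that controls proteasome genes, changed by -0.34 (adjusted p 0.0212). The share called was below the 55.1% of all genes. The other two called were Maff, at -1.17 (adjusted p 0.0447), and Gsk3b, at -0.32 (adjusted p 0.0456), named after their values were seen. Instead of 5, the fits that dropped WT library 1, 2, 3 or 4 called 3, 3, 2 and 2, with 51.5%, 51%, 48.9% and 53.8% of all genes. Those that dropped Eμ-Myc library 1, 2, 3 or 4 called 4, 3, 4 and 1, with 52.9%, 54.6%, 46.4% and 46.6% of all genes. Fewer regulators were also called with no filter and with all 12 libraries in one fit, where 40% and 41.5% of all genes were called. Between the knockout group and WT, Btrc alone was called (1.03, limma adjusted p 0.0297), where 27.8% of all genes were called and 15.6% higher. Maff (-1.33, adjusted p 0.0505) and Nfe2l1 (-0.34, adjusted p 0.0862) were next.

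Among 24 further NRF2 targets the direction was mixed. Between Eμ-Myc and WT, 9 of the 21 tested passed, 5 up and 4 down, also below the 55.1% of all genes, with a median of -0.03. Prdx1, a peroxiredoxin (1.06, SE 0.14, limma adjusted p 1.92e-04), and Gclc, the catalytic subunit that starts glutathione synthesis (1.06, SE 0.14, adjusted p 2.15e-04), rose, whereas Ephx1, a microsomal epoxide hydrolase, fell by 1.47 (SE 0.21, adjusted p 3.33e-04). Prdx1 measured between 244 and 317 in WT and between 461 and 657 in Eμ-Myc. In the knockout libraries it split like Park7, at 342, 377, 856 and 803. Against WT 3 targets were called in the knockout group, 2 higher and 1 lower. Of all genes 27.8% were called there, 15.6% higher and 12.2% lower. Higher were Gclc at 1.07 (limma adjusted p 0.0263) and Tkt, the transketolase of the pentose phosphate pathway, at 1.01 (adjusted p 0.0388). Lower was Srxn1, which repairs oxidised peroxiredoxins, at -1.38 (limma adjusted p 0.0408). Srxn1 was low, at 2.77 to 7.84 in WT and 1.26 to 3.72 in knockout libraries, and these groups overlapped.

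The genes of superoxide and peroxide handling that passed were all higher in Eμ-Myc. Of 16 genes 14 could be tested between Eμ-Myc and WT, and 7 passed, all upward, where 55.1% of all genes passed and 29.9% upward, with a median log2 fold change of 0.40 against -0.02 over all genes. The other 7 ran from -0.64 (Msrb1) to 0.37 (Msra), 4 of them below 0. The genes with the smallest p were peroxiredoxins: Prdx4 of the endoplasmic reticulum (1.89, SE 0.17, limma adjusted p 2.21e-05), Prdx2 of the cytosol (1.19, adjusted p 9.09e-05) and Prdx3 of mitochondria (0.95, adjusted p 1.08e-04). Of the same list 3 genes were called between the knockout group and WT, all higher, where 27.8% of all genes were called and 15.6% higher: Prdx4 at 1.70 (adjusted p 0.0277), Txn2, the mitochondrial thioredoxin, at 0.85 (adjusted p 0.0344), and Prdx2 at 0.94 (adjusted p 0.0352). The subunits of the phagocyte NADPH oxidase, which makes superoxide and is also present in B cells, went the other way. All 7 were tested, and 4 passed between Eμ-Myc and WT, all downward, where 55.1% of all genes passed and 25.2% downward, with a median of -0.51. Fewer of the 7 passed with all 12 libraries in one fit, where 41.5% of all genes did. Ncf1 fell by 1.71 (SE 0.26, adjusted p 5.28e-04), Cybb, the catalytic subunit, fell by 1.24 (adjusted p 0.00437), and Cybc1, a chaperone of the complex, fell by 0.51 (adjusted p 0.0110). The myeloid sums of WT (8150 to 25200) and Eμ-Myc (5920 to 16600) overlapped, whereas the T-cell sums (352 to 1870 against 77.8 to 107) and NK-cell sums (150 to 670 against 42.6 to 96.6) were lower in Eμ-Myc without overlap. The part of these cell types in the oxidase genes was not tested. Between knockout and WT libraries Cybc1 (-0.53, adjusted p 0.0407) and Rac2, the small GTPase of the complex (-0.59, adjusted p 0.0423), were called, and Ncf1 (-2.62, adjusted p 0.0648) was not.

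These list calls against WT also depended on single libraries, with 27.8% of all genes called in the full comparison. Over the fits that dropped 1 library, 0 to 3 regulators, 0 to 9 targets, 0 to 6 handling genes and 0 to 6 oxidase genes were called in the knockout group. The share of all genes called in these fits ran from 0.12% to 52.8%. Each list had 0 on dropping WT library 2 or 3 or knockout library 3 or 4. The handling list also had 0 on dropping WT library 1 or 4, the regulators 0 on dropping either, and the oxidase 0 on dropping WT library 1. With the replicate number as a block, 1 regulator, 1 target, 0 handling genes and 0 oxidase genes were called, with 10.7% of all genes.

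None of the 4 lists held a called gene in the knockout group against Eμ-Myc, with limma as above and with 0 genes at an unadjusted p under 0.05. The smallest p values belonged to Gsk3b (0.14), Cul3 (0.12) and Fbxw11 (0.14) among regulators, Blvrb (-0.35), Gsta4 (-0.73) and Abcc1 (0.35) among targets, Gpx1 (-0.25), Gpx7 (-0.36) and Msra (-0.17) among the handling genes, and Cyba (-0.19), Ncf4 (-0.22) and Ncf1 (-0.91) in the oxidase, given as log2 fold changes with an adjusted p of 1.00 each. The list medians were -0.05 for regulators, -0.10 for targets, -0.17 for handling genes and -0.20 for the oxidase, against -0.04 over all genes. Such medians join unlike libraries, since Prdx4 measured 150, 189, 507 and 471 in knockout libraries 1 to 4 and 238 to 396 in Eμ-Myc. Ncf1 measured 514, 355, 44.5 and 24.9 in knockout libraries 1 to 4 and 169 to 294 in Eμ-Myc.

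**Figure D4:**
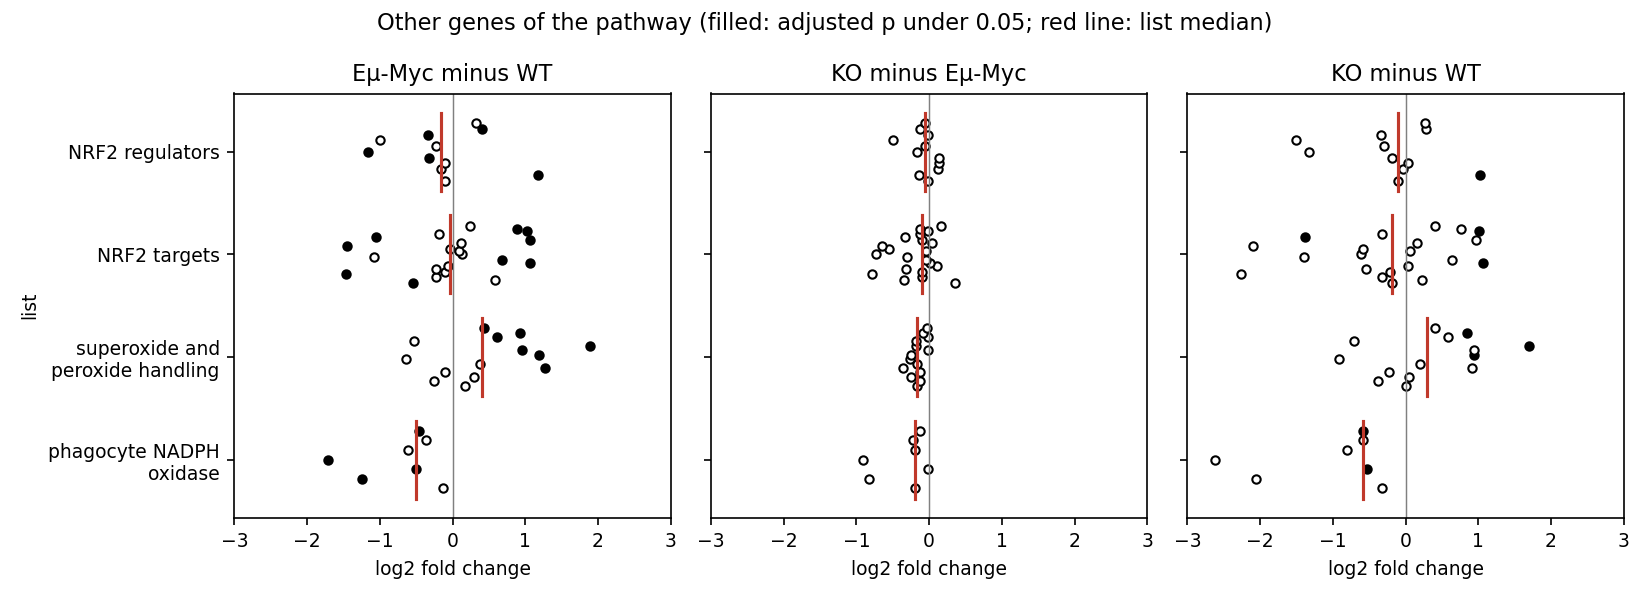
Log2 fold changes of the tested genes of 4 lists in the 3 comparisons, where filled points have an adjusted p under 0.05 in limma and the red line is the list's median. In Eμ-Myc against WT the called handling genes lie to the right (list median 0.40) and the called oxidase genes to the left (list median -0.51), and no point is filled between the knockout group and Eμ-Myc.

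Genes with the most similar pattern over the 12 libraries were found by the root mean square difference of centred log2 values among 9651 candidates. Sod2 was most like Rbm17 (0.03) and Cars (0.05), Sod1 like Cox4i1 (0.05) and Pomp (0.05), and Park7 like Dnajc2 (0.05) and Hspbp1 (0.05). Bach1 was most like Ampd3 (0.15) and Csgalnact2 (0.15).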

How the data were processed

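Directional libraries were built from polyadenylated RNA, per the labels' protocols. The authors deposited 1 file per library with a coverage signal per gene symbol, to 1 decimal. It was read as mean coverage along the gene, from the word coverage in the file names and from the values, since no header defines it. Of the values above 0, 91.6% were not whole. The submitters' processing notes name mm10, DESeq and R 4.3.3 with no role. The aligner, the counting step and the annotation are not given in the sources used here. Read depth is unknown, and values carry no counting interval. Coverage sums ran from 1277305.5 to 1885768.9 per library.

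Each library was scaled with an unweighted trimmed mean of log ratios (trimming 30% of ratios and 5% of means). A gene entered a test if 4 or more of its 8 libraries had scaled coverage of 1 or above. The fit used limma 3.58.1 in R 4.3.3, on log2(scaled coverage + 0.5), with the trend and robust options of its empirical Bayes step. Fold changes are on that scale, which understates the change of low genes. Tests were two-sided, with Benjamini-Hochberg adjustment over all genes tested, and the code was tested on simulated data. Groups follow the labels. Positions are from GENCODE M21. Figures used Python 3.11.15 and matplotlib 3.10.9.

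The members and lists were chosen with earlier results of these data known. Named beyond the members were the 3 genes of each list with the smallest p per comparison and, for each member called in Eμ-Myc against WT, the 2 genes most alike in pattern with a mean of at least 8. The pattern result for Sqstm1 is not reported here. Marker lists covered B, early B, plasma, T, NK, myeloid and erythroid cells and platelets. Plasma-cell sums ran from 158 to 462 and platelet sums from 26.5 to 330 over the libraries. Replicate numbers were checked as pairs by the correlation of deviations from group means. Between knockout and Eμ-Myc libraries it was 0.662, 0.194, 0.255 and 0.609 for numbers 1 to 4. Knockout libraries 2 and 3 matched Eμ-Myc libraries 1 and 4 best. The block was run in every comparison whatever the correlation, and the labels state no pairing.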

Additional observations from a re-analysis of the deposited data

Results flagged for a closer look

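A library far from the other 3 of its group was found in 3 of the 30 sets of 4 values (10 genes in 3 groups) by Dixon's test, which chance meets in about 1 of 20. Nfe2l2 measured 98.1 in WT library 1, against 51.7 to 57.8 in the other 3. Bach1 measured 17.3 in Eμ-Myc library 1, against 11.2 to 11.9. Mafg measured 19.8 in Eμ-Myc library 1, against 17.6 to 17.7. Without WT library 1 the log2 fold change of Nfe2l2 in Eμ-Myc against WT was -0.11.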

How the results depend on the processing

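Alternatives were other scalings (median of ratios, total coverage), no filter or a filter of 10 in every library, pseudocounts of 0.1 and 2, all 12 libraries in one fit, the replicate number as a block, library quality weights, leaving out haemoglobin genes, leaving out single libraries and, added after the data were seen, leaving out knockout libraries 1 and 2 or 3 and 4. Of the alternative values, 169 of 179 kept their direction and side of the threshold in Eμ-Myc against WT, 164 of 198 for knockout against Eμ-Myc, and 165 of 198 for knockout against WT. The cause of the changes was not tested. The filter of 10 removed Nqo1, and Bach1 in both knockout comparisons, so those have no value there. Depth is unknown, which limits what can be said of Nqo1.

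Signs turned as follows. With total coverage scaling Keap1 was -0.05 in Eμ-Myc against WT and Cat -0.02 in the knockout group against WT, where that scaling moved the median of all genes from -0.04 to -0.17. With quality weights Mafg was 0.19 in Eμ-Myc against WT. For knockout against Eμ-Myc, quality weights gave Bach1 -0.66, Nfe2l2 -0.03, Park7 0.46, Sod1 0.21 and Sod2 0.36, and a pseudocount of 0.1 gave Bach1 0.00. Without knockout libraries 1 and 2 the values were Bach1 -0.71, Nfe2l2 -0.09, Park7 0.48, Sod1 0.22 and Sod2 0.35. Without libraries 3 and 4 they were Keap1 -0.21 and Sqstm1 0.10, and Keap1 was -0.08 against WT. Over the fits without single libraries, the knockout group against Eμ-Myc ranged from -0.25 to 0.26 for Bach1, -0.07 to 0.13 for Keap1, -0.01 to 0.08 for Nfe2l2, -0.31 to 0.14 for Park7 and -0.18 to 0.13 for Sod2. Mafg ranged from -0.17 to 0.27 in Eμ-Myc against WT and Nqo1 from -0.07 to 0.49 in the knockout group against WT.

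Counts of called genes in Eμ-Myc against WT moved for regulators from 5 to 3 with no filter, 1 with all 12 libraries and 1 to 4 without single libraries. For the oxidase they moved from 4 to 2 with all 12 libraries and 4 to 6 without single libraries. The share of all genes called was 55.1% in the main fit, 40% with no filter and 41.5% with all 12 libraries. Without single libraries it ran from 46.4% to 54.6%. Against Eμ-Myc, from 0 in the knockout group, quality weights called 8 members, 6 regulators, 14 targets, 7 handling genes and 5 oxidase genes, with 61% of all genes. Without knockout libraries 1 and 2 they were 3, 1, 8, 2 and 3 (29.7% of all genes), and without 3 and 4 they were 1, 1, 1, 3 and 0 (10.6%). Against WT the knockout group had counts of 2, 1, 3, 3 and 2 in that order. They became 4, 3, 8, 6 and 5 with all 12 libraries (45.9% of all genes), 7, 7, 18, 10 and 7 with quality weights (83%), and 6, 6, 14, 9 and 6 without knockout libraries 1 and 2 (70.3%). Without libraries 3 and 4, regulators gave 0, targets 1 and the oxidase 0 (10.9%). Regulators gave 2 with no filter (15.3% of all genes) and 2 with a pseudocount of 2 (28.7%), and the oxidase gave 0 with no filter. Without single libraries the ranges were 0 to 5 members, 0 to 3 regulators, 0 to 9 targets, 0 to 6 handling genes and 0 to 6 oxidase genes. The share of all genes called in those fits ran from 0.12% to 52.8%. All genes called in that comparison numbered 3515, against 18 without WT library 2 and 15 without WT library 3.

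With the replicate block, 1 member was called in the knockout group against WT (the adjusted p of Park7 in limma was 0.0535), with 1 target, 0 handling genes and 0 oxidase genes, and 1352 (10.7%) of all genes. Same-numbered libraries correlated there at 0.398, -0.426, 0.136 and -0.064, and in Eμ-Myc and WT at 0.232, -0.099, 0.265 and 0.134, so they share only a number, and not every library matched its own number best. For knockout against Eμ-Myc the block changed no call of a member or list.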
